A study of Mus musculus with 12 samples.

Results

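Ribosome biogenesis factors are the nucleolar and nuclear proteins that make ribosomal RNA and assemble it with ribosomal proteins. The set described here was chosen by gene name. It holds every gene of the expression table whose symbol is UTP, NOP, RRP or NOL followed by a number, with or without a closing letter for UTP and RRP, together with the RNA polymerase I subunits POLR1A to POLR1E. This rule used no measured value and found 38 of the 24197 genes in the table. Of these, 36 had a mean of at least 1 FPKM over the 4 groups, as did 9890 genes of the whole table. FPKM counts sequenced fragments for each kilobase of a gene's transcript, scaled to the size of the library. The remaining 2 were Nol3, an apoptosis repressor that shares only the name (0.0910, 0.0735, 0.0299 and 0.0322 FPKM with 4HC, 4HC plus anti-IFNAR1, IFNβ and in control), and Nol4, listed at 0.00195 FPKM with 4HC and at 0 in the other groups.

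A ribosome begins as one long precursor RNA that RNA polymerase I transcribes in the nucleolus. A large particle called the small-subunit processome folds and cuts the part that becomes 18S rRNA, guided by small nucleolar ribonucleoproteins (snoRNPs), and other factors remove the spacers around the large-subunit rRNAs. The transcription factor MYC is known to drive many of these genes in growing tumor cells, and faulty ribosome assembly is known to stabilise p53.

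The cells were E0771, an established mouse mammary tumor line, grown in culture. In the 4HC group the cells received 4.2 µM 4HC, the chemically activated form of cyclophosphamide, for 4 h, and were collected 68 h after the drug was washed out, at 72 h. A further group received the same 4HC together with 10 µg/mL of an antibody that blocks the type I interferon receptor subunit IFNAR1. The IFNβ group received 27.8 U/mL of interferon-beta for 4 h and, by its treatment label, was collected 2 h later. Control cells received vehicle and were collected at 72 h. No control with the collection time of the IFNβ cells is among the 12 libraries, so IFNβ and time cannot be told apart. By the paper's methods, IFNβ cultures were also seeded more densely than drug-treated E0771 cultures. Each group had 3 libraries, 12 in all. No group received a control antibody, so blocking of the receptor and the presence of an antibody cannot be told apart.

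The table holds 1 mean FPKM per gene and group and no value per library. All levels below are therefore the authors' means, no spread between cultures can be given, and no difference was tested here. Ratios are log2 values of one group mean over another after adding 0.1 FPKM to each, and "higher" or "lower" describes the means only. A log2 ratio of 0.32 in either direction, which is 25% above or 20% below, served as the threshold for counting genes, beside the share of all 9890 genes past it. It was set with earlier results of these data known, in which the factors moved by less than 2-fold. The paper's own cutoff was a change of more than 2-fold. As a check of the treatments, the median log2 ratio of 6 interferon-stimulated genes (Isg15, Mx1, Oas2, Usp18, Ifit1 and Irf7) against control was 4.68 with 4HC, 1.46 with 4HC plus anti-IFNAR1 and 5.09 with IFNβ. Leukocyte markers summed to at most 0.05 FPKM in every group. Of 6 epithelial markers, Krt8 was at 70.2 FPKM and Erbb2 at 4.71 FPKM in control, Epcam, Cdh1 and Krt18 were under 0.1 FPKM in all groups, and Krt14 had 0.509, 0.643, 0.112 and 0.0957 FPKM with 4HC, 4HC plus anti-IFNAR1, IFNβ and in control. Of 3 mesenchymal markers, Vim was at 785 FPKM in control, Cdh2 was listed at 0 and Fn1 was at 0.00801 FPKM. Of 4 fibroblast markers, Col1a1 was at 26.7 FPKM and Pdgfra at 7.05 FPKM in control. The others, Col1a2 and Dcn, were under 0.1 FPKM in all groups. Endothelial markers summed to at most 0.704 FPKM in every group. The defining epithelial markers Epcam and Cdh1 were thus near 0 in a line labelled as mammary tumor.

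The 36 expressed factors covered a wide range of level, and the treatments hardly reordered them. Nop56 was the most abundant in every group and Utp14b the least. The rank correlation of levels between any pair of groups lay between 0.96 and 0.99 over the 36 genes, which describes the same genes measured repeatedly. The summed level of the 36 was 805 FPKM with 4HC, 849 FPKM with 4HC plus anti-IFNAR1, 920 FPKM with IFNβ and 861 FPKM in control. The sum over the whole table also differed, at 197196, 217375, 214728 and 203650 FPKM in the same order. The sums of the factors are therefore not shares of an equal total, and their order alone does not rank the groups.

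**Figure D1:**
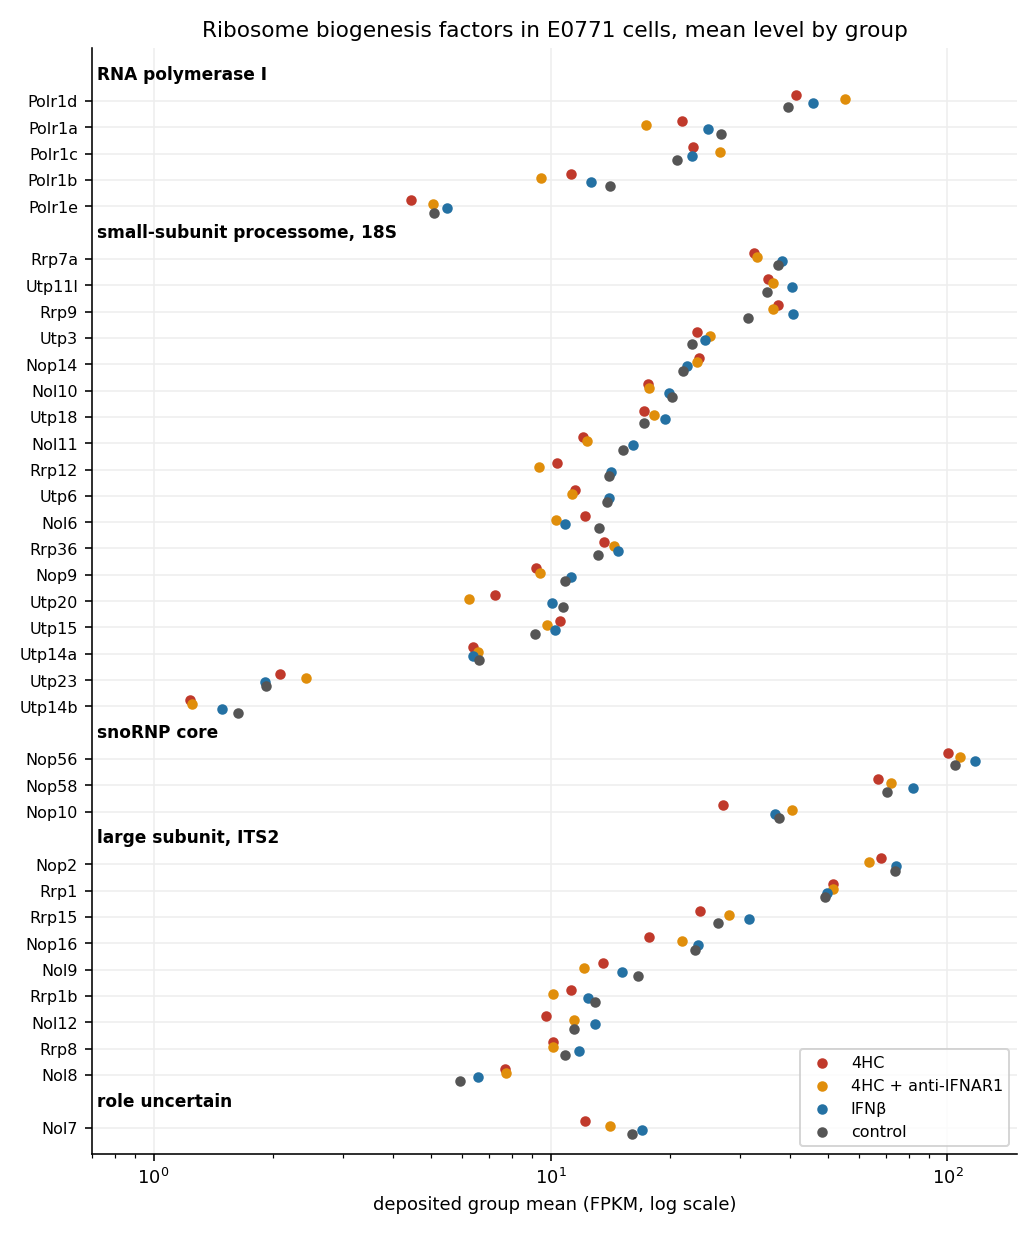
Deposited mean level of each of the 36 expressed factors (FPKM, log scale) with 4HC, 4HC plus anti-IFNAR1, IFNβ and in control, 1 point per group mean, arranged by role. Nop56 heads every group at 100.3 to 117 FPKM and Utp14b closes it at 1.24 to 1.63 FPKM. The widest gaps between groups are those of Utp20, Polr1a, Rrp12 and Polr1b, for which 4HC plus anti-IFNAR1 is lowest, and of Nop10, for which 4HC is lowest.

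With 4HC, 9 of the 36 factors were lower than in control past the threshold and 1 was higher, where 14.6% of all genes were lower and 16.3% higher. Their median log2 ratio was -0.13, against -0.03 over all genes, and 25 were below control, as were 5398 of the 9890 genes. The 9 lower past the threshold were Utp20, Nop10, Rrp12, Nol7, Nop16, Utp14b, Nol11, Polr1a and Polr1b, and the higher one was Nol8. Among genes of at least 5 FPKM, the 4HC median was -0.13 for 34 factors and -0.08 for all genes. Over 8 reference genes it was -0.18, with 6 below control and 2 above. With 4HC plus anti-IFNAR1, 8 factors were lower than in control (16.0% of all genes) and 3 were higher (18.7% of all genes), around a median of -0.01 for the factors and -0.01 for all genes. With IFNβ, none of the factors was lower past the threshold and 1, Rrp9, was higher (6.31% and 5.21% of all genes). The factors' median with IFNβ was 0.05, against -0.03 over all genes. With IFNβ 25 of 36 were above control, as were 4317 of the 9890 genes. These comparisons share the control libraries, and the first 2 share the drug. The IFNβ comparison also differs in time of collection.

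Differences of 1.5-fold or more were few among the factors. At 1.5-fold, none was lower with 4HC (2.69% of all genes) and none higher (7.59%), 2 were lower with 4HC plus anti-IFNAR1, Utp20 and Polr1a (3.46%), and none higher (7.38%), and none was lower (0.748%) or higher (2.89%) with IFNβ. Between the antibody group and 4HC alone, none was lower (1.94%) or higher (1.09%) by 1.5-fold. At 2-fold no factor was lower or higher than in control, where 0.283% and 3.36% of all genes were with 4HC, 0.303% and 2.82% with 4HC plus anti-IFNAR1, 0.121% and 1.8% with IFNβ. No factor was higher by 2-fold in the antibody group than with 4HC alone (0.182%).

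**Figure D2:**
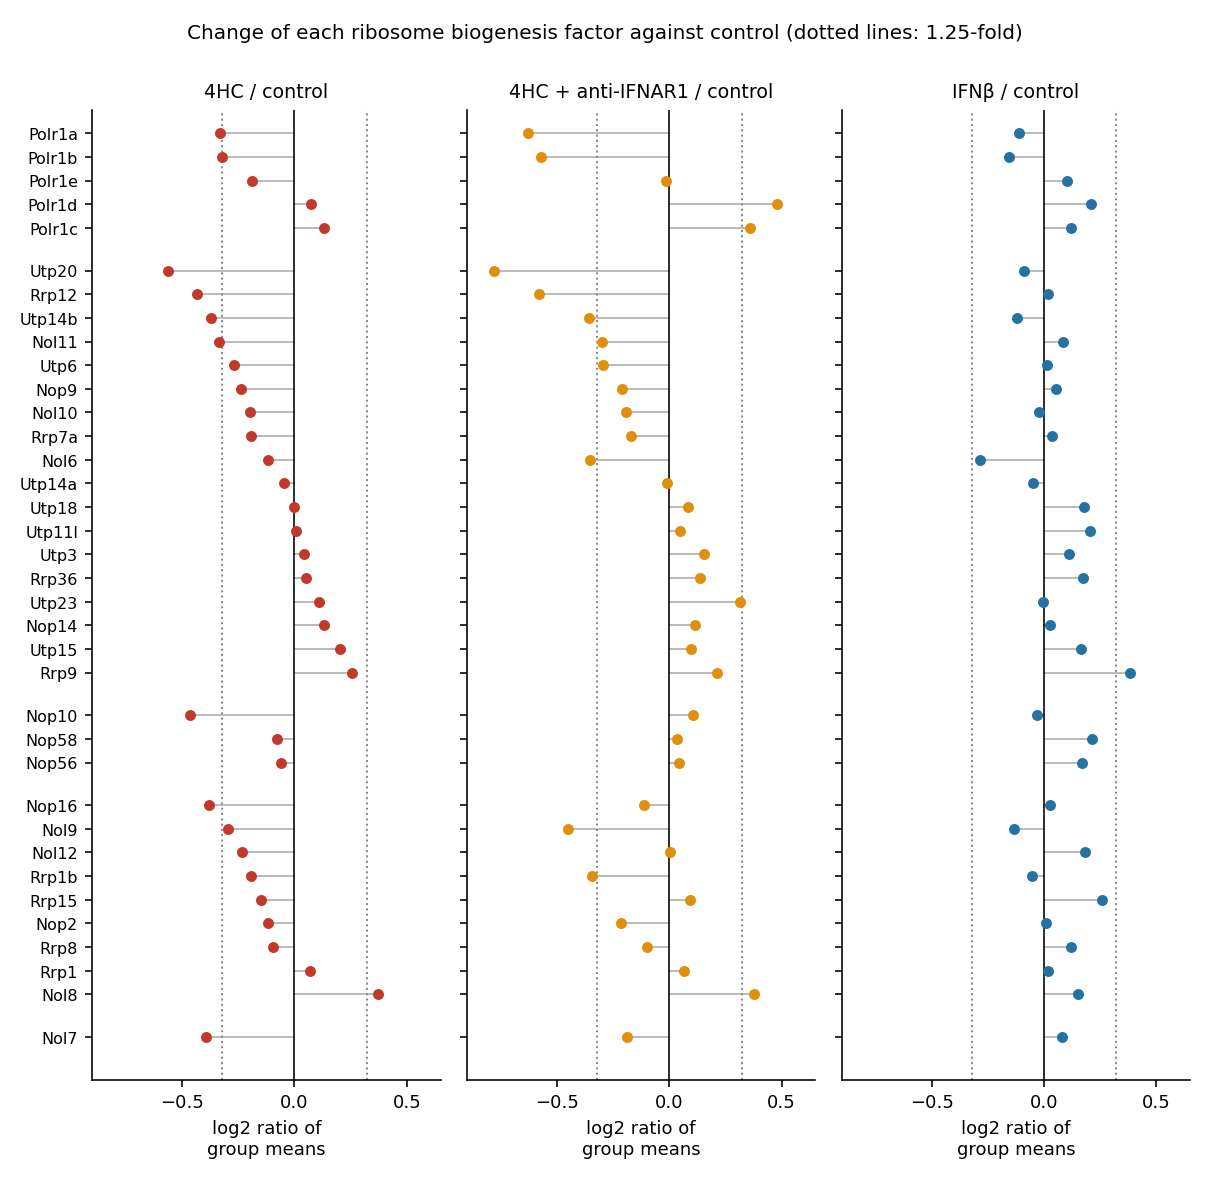
Log2 ratio of the group means for each of the 36 factors with 4HC (left), 4HC plus anti-IFNAR1 (middle) and IFNβ (right), each against control, arranged by role and then by the 4HC ratio. Dotted lines mark the threshold of 0.32 in either direction. The 4HC points lie mostly left of 0, the anti-IFNAR1 points spread widest, between -0.78 and 0.48, and the IFNβ points lie closest to 0, between -0.28 and 0.38.

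The subunits of RNA polymerase I lay on both sides of control. Polr1a, the largest catalytic subunit (mm9, chr6:71859046-71929355), had 21.4 FPKM with 4HC, 17.4 FPKM with 4HC plus anti-IFNAR1 and 24.9 FPKM with IFNβ, against 26.9 FPKM in control. Polr1b, the second-largest subunit that completes the active site, had 11.3, 9.46 and 12.7 FPKM in the same order of treatments, against 14.1 FPKM in control. Both were thus lowest in cells given 4HC and the antibody, at 64.6% and 67.0% of the control mean (log2 ratios -0.63 and -0.57), and lay at 79.4% and 79.8% of control with 4HC alone.

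Polr1d and Polr1c lay on the other side. Polr1d, which RNA polymerases I and III share (mm9, chr5:147888921-147922937), had 41.6 FPKM with 4HC, 55.1 FPKM with 4HC plus anti-IFNAR1 and 45.8 FPKM with IFNβ, against 39.6 FPKM in control. Its partner Polr1c, also shared by both polymerases, had 22.9, 26.8 and 22.7 FPKM, against 20.9 FPKM in control. With the antibody these subunits stood at 139% and 128% of control, the opposite direction from Polr1a and Polr1b in the same cells. Polr1e, the counterpart of a yeast subunit that helps the enzyme start and elongate, differed little, with 4.45, 5.05 and 5.48 FPKM, against 5.09 FPKM in control. The ratio of Polr1a to Polr1d FPKM was 0.514 with 4HC, 0.316 with 4HC plus anti-IFNAR1 and 0.544 with IFNβ, against 0.681 in control. The ratio of Polr1a to Polr1b was between 1.84 and 1.96 in the 4 groups.

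The small-subunit processome supplied 18 of the expressed factors, and 4 of them (22.2%) were lower with 4HC past the threshold, as were 14.6% of all genes. Utp20, a very large scaffold protein needed to cut out 18S rRNA (mm9, chr10:88209351-88289559), had the lowest ratio of all 36 in both groups that received the drug. It was at 7.23 FPKM with 4HC, 6.22 FPKM with 4HC plus anti-IFNAR1 and 10.1 FPKM with IFNβ, against 10.7 FPKM in control. These means are 67.4%, 57.9% and 94.0% of control. The IFNβ group was thus near control and the other groups were not, but the IFNβ cells were collected at another time. Rrp12, a repeat protein that in yeast helps both subunits leave the nucleus, followed the same course with 10.4, 9.38 and 14.2 FPKM, against 14.1 FPKM in control.

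Nol11, which in human cells joins the processome early and supports rDNA transcription, had 12.1 FPKM with 4HC, 12.4 FPKM with 4HC plus anti-IFNAR1 and 16.2 FPKM with IFNβ, against 15.3 FPKM in control. Utp14b, the rarest factor, had 1.24 FPKM with 4HC and 1.49 FPKM with IFNβ, against 1.63 FPKM in control, and stood at 76.8% of control with 4HC plus anti-IFNAR1. It is a retrocopy of Utp14a that lies inside the span of Acsl3, so its reads may be shared with both, and Acsl3 was itself lower with 4HC (7.19 FPKM, against 10.6 FPKM in control). Utp14a, its parent gene, kept within 6.38 to 6.60 FPKM in all 4 groups.

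At the upper end of this role, Rrp9, the protein that binds U3 snoRNA, was above control under every treatment: 37.5 FPKM with 4HC, 36.4 FPKM with 4HC plus anti-IFNAR1 and 40.9 FPKM with IFNβ, against 31.4 FPKM in control. With IFNβ this came to a log2 ratio of 0.38, the highest of the 36. Rrp7a, the most abundant of the role in control, had 32.6, 33.2 and 38.3 FPKM, against 37.3 FPKM in control. Nol6, the counterpart of yeast Utp22, was the lowest factor with IFNβ, with 10.9 FPKM against 13.3 FPKM in control (log2 ratio -0.28), and had 12.2 FPKM with 4HC and 10.3 FPKM with 4HC plus anti-IFNAR1. The other 11 factors of this role (Nol10, Nop14, Nop9, Rrp36, Utp3, Utp6, Utp11l, Utp15, Utp18, Utp23 and Utp14a) were within the threshold of control under every treatment.

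The snoRNP core proteins split into a pair near control and 1 that was not. Nop56, a scaffold of the box C/D snoRNPs that methylate rRNA, had 100.3 FPKM with 4HC, 108 FPKM with 4HC plus anti-IFNAR1 and 117 FPKM with IFNβ, against 105 FPKM in control. Nop58, the other scaffold of the same particle, had 66.7, 72.1 and 81.8 FPKM, against 70.4 FPKM in control. Their levels kept a ratio of 1.44 to 1.503 in the 4 groups. Both overlap snoRNA genes in the table, and Nop56 also overlaps Idh3b.

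Nop10, a small protein of the box H/ACA snoRNPs that convert uridine to pseudouridine and of telomerase (mm9, chr2:112102082-112103055), had 27.2 FPKM with 4HC, 40.6 FPKM with 4HC plus anti-IFNAR1 and 36.8 FPKM with IFNβ, against 37.7 FPKM in control. Only the cells given 4HC alone were low, at 72.3% of control. The antibody group lay above the 4HC group by a log2 ratio of 0.57, the largest difference of any factor in that comparison.

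Large-subunit factors numbered 9. Nop2, an rRNA cytosine methyltransferase and the most abundant of them, had 67.9 FPKM with 4HC, 63.6 FPKM with 4HC plus anti-IFNAR1 and 74.2 FPKM with IFNβ, against 73.7 FPKM in control. Nop16, a nucleolar protein of the pre-60S particle in yeast, had 17.7, 21.4 and 23.6 FPKM, against 23.1 FPKM in control, and so was low in cells given 4HC alone (log2 ratio -0.38). Nol9, the kinase that prepares the second internal spacer for removal, had 13.5, 12.1 and 15.2 FPKM, against 16.7 FPKM in control, and was lowest with the antibody (log2 ratio -0.45).

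Nol8 was the 1 factor that was higher with 4HC past the threshold. This nucleolar protein (mm9, chr13:49748446-49774385) had 7.70 FPKM with 4HC, 7.72 FPKM with 4HC plus anti-IFNAR1 and 6.58 FPKM with IFNβ, against 5.92 FPKM in control. Both drug groups were at 130.0% and 130.4% of control. Rrp1b, a nucleolar relative of yeast Rrp1, had 11.3, 10.2 and 12.4 FPKM, against 12.9 FPKM in control, while its paralog Rrp1 kept between 49.1 and 51.4 FPKM in all groups. Rrp15, Rrp8 and Nol12 were within the threshold of control throughout. Nol7, whose nucleolar role is less settled, had 12.2, 14.1 and 17.0 FPKM, against 16.1 FPKM in control, and overlaps the end of Ranbp9.

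Set directly against 4HC alone, the antibody group had none of the 36 factors lower past the threshold and 2 higher, Nop10 and Polr1d (4.85% and 8.35% of all genes). The factors' median was 0.03, against -0.01 over all genes. In the same comparison the 6 interferon-stimulated genes had a median of -3.41, a difference many times larger than that of any factor.

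In this comparison the factors were ordered by length. Over the 36 factors, the log2 ratio of 4HC plus anti-IFNAR1 to 4HC had a Spearman rank correlation of -0.81 with coding length and of -0.66 with transcript length. Nop10, with the shortest coding sequence (192 nt), had the highest ratio, followed by Polr1d (399 nt, 0.41) and Nop16 (543 nt, 0.27). Polr1a (5151 nt) had the lowest at -0.30, with Polr1b (3405 nt) at -0.25, Nol6 (3456 nt) at -0.24 and Utp20 (8367 nt) at -0.21. The points share the same 2 group means and are genes, not replicates.

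**Figure D3:**
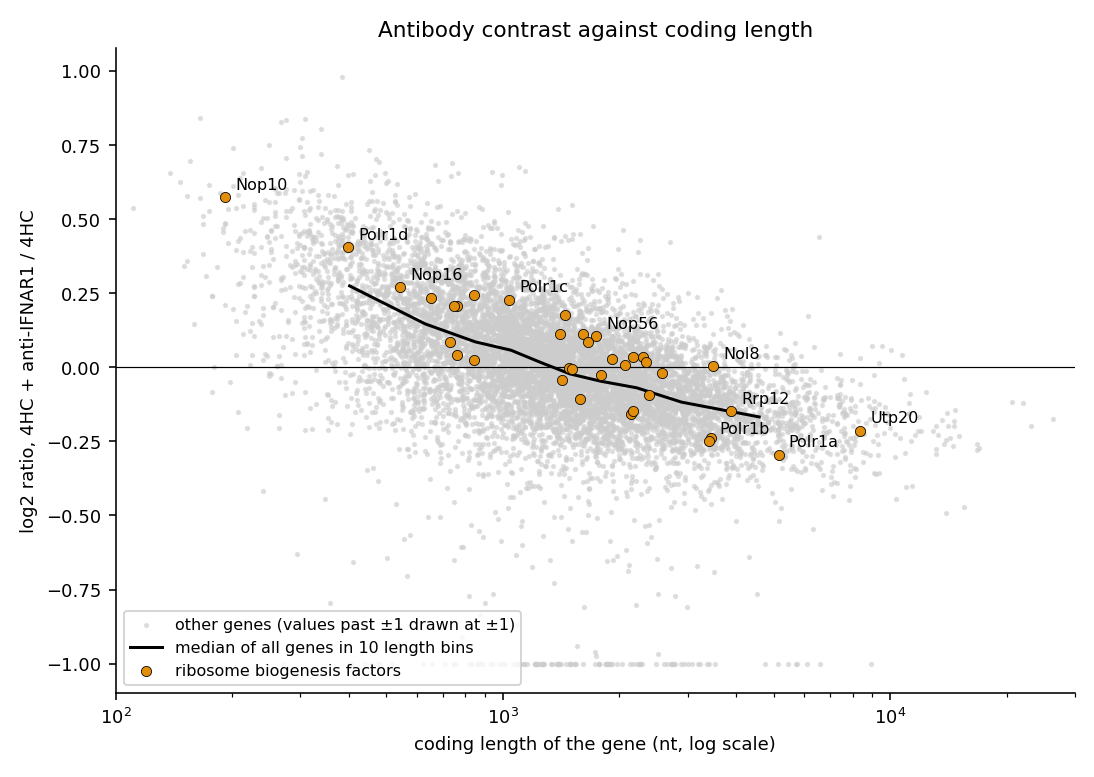
Log2 ratio of 4HC plus anti-IFNAR1 to 4HC group means (vertical axis) against coding length (nt, log scale) for the 36 factors (orange) and the other expressed genes (grey, values past 1 drawn at the edge), with the median of all genes in 10 length bins (black line). The factors run down with the line, Nop10 at 0.57 on the left and Polr1a at -0.30 on the right.

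This slope was not particular to the factors. Over the 9390 expressed genes with an annotated coding sequence the same correlation was -0.58 with coding length and -0.58 with transcript length. It was -0.74 over 103 other ribosome biogenesis factors and -0.52 over 77 cytosolic ribosomal protein genes. The median log2 ratio of all genes was lower in each longer bin of coding length, with 0.27 in the shortest bin (median 402 nt) and -0.17 in the longest (median 4590 nt). Against control, the correlation over all genes was -0.36 with 4HC plus anti-IFNAR1 and -0.37 with IFNβ, but 0.01 with 4HC. For the 36 factors the values were -0.61, -0.55 and -0.20 in that order.

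**Figure D4:**
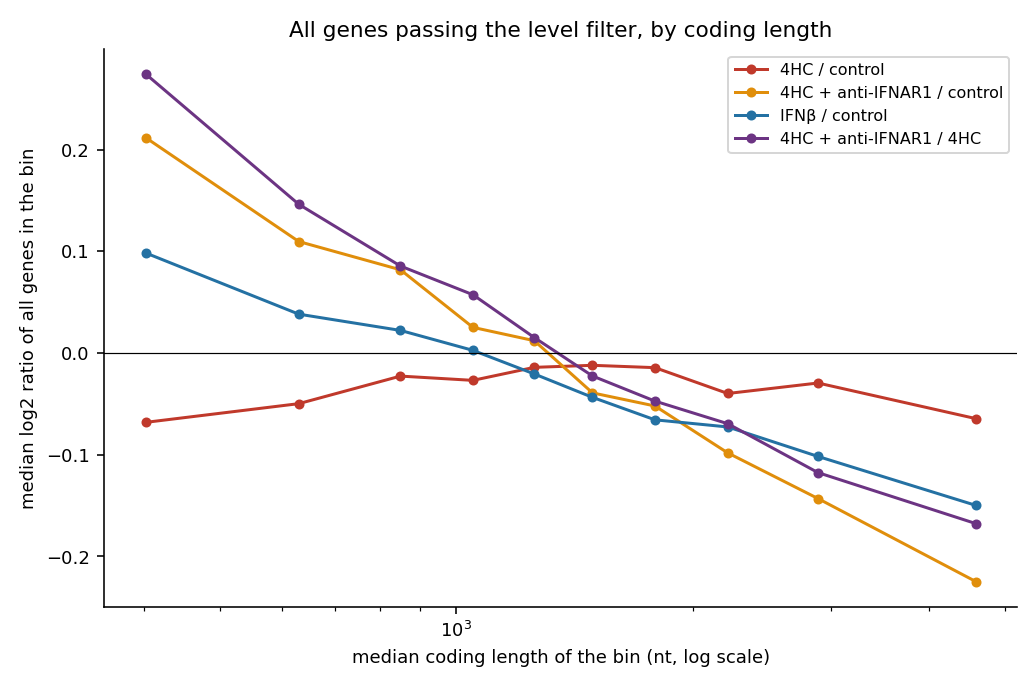
Median log2 ratio of all expressed genes (vertical axis) in 10 bins of coding length (horizontal axis, median of each bin in nt, log scale), 1 line for each comparison. The lines for 4HC plus anti-IFNAR1 against 4HC and against control run from 0.27 and 0.21 in the shortest bin to -0.17 and -0.22 in the longest, the IFNβ line from 0.10 to -0.15, and the 4HC line stays between -0.07 and -0.01.

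Measured from the median of genes of similar coding length, part of the differences above remained and part did not. With 4HC plus anti-IFNAR1 against control, Utp20 lay -0.55 from its length bin, Polr1b -0.43, Polr1a -0.40, Rrp12 -0.35 and Nol9 -0.35, and Nol8 and Polr1c lay 0.60 and 0.33 above theirs. Polr1d, in contrast, came within the threshold of its bin at 0.27. Against 4HC, Nop10 lay 0.30 and Polr1d 0.13 above their bins, both short of the threshold, and Polr1a lay at -0.13 from its bin. With 4HC against control, where all genes showed no slope with length, Utp20 (-0.50), Nop10 (-0.40), Nol7 (-0.37), Rrp12 (-0.37), Nop16 (-0.33) and Utp14b (-0.33) were still past the threshold. The part that transcript length played in the differences of single factors was not tested, and fragment size or RNA quality of the libraries was not analysed here.

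Split at their median coding length of 1632 nt, the 18 longer factors carried most of the lower values with 4HC as well. Of these, 16 were below control with 4HC, at a median of -0.22, while the 18 shorter ones divided into 9 below and 9 above, at a median of -0.03. Genes of the whole table on either side of that length had medians of -0.04 and -0.04. Of those over it 55.2% were below control, and of those at or under it 54.9%. With 4HC the longer factors were thus lower without a like gap between long and short genes of the whole table, and this difference could not be tested. As a rank correlation of the 4HC ratio with coding length, it came to only -0.20 over the 36 factors. Over the 103 other ribosome biogenesis factors the same correlation was 0.05, so the trend was not seen in the rest of the pathway.

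Other genes of the pathway were listed by known function rather than by name. With 4HC, 68 of these 103 expressed genes were below control, as were 5398 of the 9890 genes. Their median was -0.11, against -0.03 over all genes and -0.08 over all genes of at least 5 FPKM. Past the threshold, 6 of the 103 (5.83%) were lower with 4HC and 3 (2.91%) higher, against 14.6% and 16.3% of all genes. With 4HC plus anti-IFNAR1, 10 (9.71%) were lower and 9 (8.74%) higher, against 16.0% and 18.7% of all genes (median -0.05). With IFNβ none was lower and 2 (1.94%) were higher, against 6.31% and 5.21% of all genes (median 0.09). In each of these counts a smaller share of the factors than of all genes was past the threshold. The 11 other snoRNP and nucleolar core proteins were all below control with 4HC, as were 5398 of the 9890 genes, at a median of -0.26. Dkc1, the pseudouridine synthase that works with Nop10, had 33.4 FPKM with 4HC, 36.6 FPKM with 4HC plus anti-IFNAR1 and 49.4 FPKM with IFNβ, against 44.1 FPKM in control. Npm1, the abundant nucleolar chaperone, was the least affected of that list at -0.03.

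At the ends of the other lists stood a few further genes. Nat10, which acetylates 18S rRNA, had 9.92, 9.55 and 13.3 FPKM with 4HC, 4HC plus anti-IFNAR1 and IFNβ, against 14.6 FPKM in control. Ddx24, a DEAD-box helicase, had 42.0, 26.2 and 39.7 FPKM, against 22.4 FPKM in control, and so was high where the interferon-stimulated genes were high and close to control under the antibody. Gnl3l, a nucleolar GTPase and the lowest large-subunit factor with 4HC, had a log2 ratio of -0.55, and Esf1, the highest of the small-subunit list, 0.23. Among RNA polymerase I transcription factors Taf1d, a subunit of the promoter selectivity complex, was highest with 4HC at 0.57 and Taf1b, of the same complex, lowest at -0.20.

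The cytosolic ribosomal proteins, the cargo of this pathway, had a median log2 ratio against control of -0.13 with 4HC, 0.30 with 4HC plus anti-IFNAR1 and 0.18 with IFNβ over 77 expressed genes. Against 4HC, all 77 were above 0 with the antibody, as were 4850 of the 9890 genes, and 61 (79.2%) were higher past the threshold, as were 8.35% of all genes. Ribosomal proteins have short coding sequences, and the part of length in this was not tested.

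Myc, the gene of the transcription factor, was above control in all treated groups. Its transcript had 145 FPKM with 4HC, 121 FPKM with 4HC plus anti-IFNAR1 and 80.8 FPKM with IFNβ, against 64.2 FPKM in control (log2 ratios 1.17, 0.92 and 0.33). Mxd3, a MAX partner that opposes MYC and the lowest gene of that network with 4HC, had 2.51, 3.02 and 4.25 FPKM, against 4.22 FPKM in control. Mxd4, of the same network, went the other way in both drug groups, with 4.12, 3.88 and 2.14 FPKM, against 3.01 FPKM in control. Cdkn1a, a main p53 target, had 38.2, 29.2 and 22.2 FPKM, against 11.5 FPKM in control. In the same list Mdm2 had 18.9, 16.3 and 7.89 FPKM, against 7.69 FPKM in control. Trp53 had 69.3, 65.5 and 52.4 FPKM, against 58.3 FPKM in control. Rpl11, a ribosomal protein that binds MDM2, was the lowest of the p53 list with 4HC at -0.31. Ppia was the lowest of the reference genes with 4HC at -0.32.

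Because MYC binds the E-box CACGTG, the factors' promoters were searched for it. RefSeq windows (build GRCm38.p6) of 250 bases before and 50 after the gene start were at hand for 31 of the 36. CACGTG, which reads the same on both strands, was found in 6 of them, or 19.4%, against 8.09% of 27025 genes with a window and 12.4% of 7386 such genes that were expressed here. The 6 were Nol11, Nop2, Rrp7a, Utp14b, Utp18 and Utp20, the last within the transcribed bases. The CGCG element, a palindrome of 10 letters that stands in capitals in the Nol9 sequence and is common in promoters of housekeeping genes, was found only in Nol9 (0.525% of all genes and 1.37% of expressed ones), and a core of the interferon-stimulated response element, GAAA repeated after any 2 bases and searched on both strands, only in Nol10 (3.99% of all genes and 3.70% of expressed ones). Shown are the stretches of 4 E-box promoters, Nol11 and Utp14b, which were lower with 4HC, and Nop2 and Utp18, which were within the threshold, and the stretch of Nol9, 5′ to 3′ on the gene's strand with the motif in capitals.
Nol11 (chr11:107189382-107189484, minus strand): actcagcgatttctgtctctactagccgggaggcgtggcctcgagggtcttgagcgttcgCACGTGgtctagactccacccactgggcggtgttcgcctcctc
Utp14b (chr1:78658317-78658439, plus strand): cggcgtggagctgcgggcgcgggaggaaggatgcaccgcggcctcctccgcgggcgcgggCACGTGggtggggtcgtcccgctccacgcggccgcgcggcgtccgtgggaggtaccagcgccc
Nop2 (chr6:125131763-125131882, plus strand): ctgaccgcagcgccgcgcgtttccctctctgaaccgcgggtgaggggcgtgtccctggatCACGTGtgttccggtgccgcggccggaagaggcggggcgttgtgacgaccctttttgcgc
Utp18 (chr11:93885767-93885846, minus strand): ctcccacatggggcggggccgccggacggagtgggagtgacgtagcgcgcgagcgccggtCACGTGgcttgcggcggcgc
Nol9 (chr4:152039255-152039337, plus strand): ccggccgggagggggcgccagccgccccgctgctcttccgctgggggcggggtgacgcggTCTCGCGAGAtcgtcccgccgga

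With 4HC, 25 of the 36 factors and 5398 of the 9890 genes were below control, and the 6 factors with an E-box were at or below it. Their log2 ratios were -0.56 for Utp20, -0.37 for Utp14b, -0.33 for Nol11, -0.19 for Rrp7a, and -0.12 for Nop2, and Utp18 stood at 99.9% of control. The direction of other expressed genes with the string was not examined, and any link of these levels to Myc was not tested. With IFNβ the same 6 lay between -0.12 (Utp14b) and 0.18 (Utp18). A matching string is a description of these letters and not evidence of a bound site.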

How the data were processed

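RNA was sequenced from 12 libraries of cultured E0771 cells, 4 groups of 3, from polyadenylated RNA. The submitters' processing notes name TopHat2, featureCounts and edgeR with build mm9, without versions, and whether counting used strand is not given in the sources used here, so overlapping genes may share reads. The deposited values are FPKM, 1 mean per group made by the authors from their fragment counts. Depth per library is not in the table and no count was recovered. A further 12 columns of the authors' own comparisons (ratios, fold changes and adjusted p-values) were not used.

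Ratios were computed from the deposited means as log2(FPKM + 0.1), for genes with a mean over the 4 groups of at least 1 FPKM. The planned test on values per library could not be run. Coding and transcript lengths came from GENCODE vM21 (transcript with the longest coding sequence), found for 94.9% of expressed genes. Both lengths were computed, and coding length was taken as the main one after both had been seen, since the Nop58 model has an unusually long transcript. Promoters came from RefSeq GRCm38.p6, and gene coordinates from the table (mm9). All 36 expressed members are accounted for, and the genes of each role and pathway list with extreme level or extreme 4HC ratio were named, except 1 reference gene that is not reported here. The members, the lists and the threshold were chosen with earlier results of these data known. The length steps were tested on simulated data. The treatment label gives collection of IFNβ cells 2 h after exposure and the table's header 6 h in all, while the protocol text gives 68 h. The calculations ran in Python 3.11.15 with matplotlib 3.10.9, scipy 1.17.1, numpy 2.4.6 and pandas 2.3.3.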

Additional observations from a re-analysis of the deposited data

How the results depend on the processing

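No paired analysis was possible because the levels in the table are group means with no value per library, and for the same reason leaving out single replicates and the replicate block were not run. Medians of the factors moved by under 0.1 in every setting run, and none changed sign. The 24 values of single factors past the threshold kept their sign in the settings where single values were followed. Values within the threshold were not followed, and some changed sign after centring on coding length. An example is Nop10 with 4HC plus anti-IFNAR1 against control, at 0.11 before and -0.10 after. With a pseudocount of 1 FPKM, 5 factors were lower with 4HC, against 9, beside 11.3% of all genes. Without the level filter, 2 were higher with 4HC, beside 17.7% of all genes. The added one was Nol3, which shares only the name and was near 0 (0.0910 FPKM, against 0.0322 FPKM in control). At 1.5-fold the lower and higher counts were 0 and 0 with 4HC, 2 (Utp20 and Polr1a) and 0 with 4HC plus anti-IFNAR1, 0 higher with IFNβ and 0 higher for the antibody against 4HC, and at 2-fold all these counts were 0. Centring on genes of similar coding length, added after seeing the data, gave 5 lower with 4HC plus anti-IFNAR1 (12.5% of all genes) and 0 higher for the antibody against 4HC (2.06%). Centring on transcript length gave 5 lower with 4HC (11.5%), 2 higher with IFNβ (5.13%) and 0 higher for the antibody against 4HC (2.59%). Of the 24 values of single factors past the threshold, 9 fell short of it after centring on coding length, 6 with a pseudocount of 1 FPKM and 3 after centring on all genes, among them Polr1a, Polr1b and Nol11 with 4HC. The counts for 4HC thus rest on factors close to the threshold, and since the authors' own test columns were not used, no difference was set against the spread between cultures.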
